A study of Mus musculus with 6 samples.

Results

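Glucose transporters, hexokinases, pyruvate dehydrogenase kinases, lactate dehydrogenases and monocarboxylate transporters were followed in B16 cells, a mouse melanoma line, under low oxygen. The genes were fixed by name, a pair from each family: Slc2a1 and Slc2a3, Hk1 and Hk2, Pdk1 and Pdk3, Ldha and Ldhb, and Slc16a3 and Slc16a1. They were chosen with earlier results of these data known. They are 10 of 12393 genes named on the array. All 10 were among the 7746 genes kept after a filter on low signal, and 18 of their 20 probe sets (groups of probes that read the same transcript) passed it. The other 2 probe sets, both of Slc2a3, lay under the signal floor on 4 and 6 of the 6 arrays and were left out. The study asked how steady and interrupted hypoxia change the transcriptome of these cells, which its title ties to metastasis. Cells were grown with 10% serum and moved to serum-free medium 2 h before the exposure. Cyclic hypoxia was 3 periods of 1 h below 1% oxygen with breaks of 30 min of reoxygenation, chronic hypoxia was 3 h below 1% oxygen without a break, and normoxia was 3 h without hypoxia. Each regime was collected when the exposure ended and again 1 h later. For hypoxic cells the last hour was reoxygenation. The groups are therefore cyclic hypoxia plus reoxygenation, cyclic hypoxia, chronic hypoxia plus reoxygenation, chronic hypoxia, normoxia plus 1 h and normoxia, with 1 array each. The labels name no normoxia array that lasted as long as the breaks made cyclic hypoxia last, and they do not say whether arrays came from separate cultures or days.

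The genes stand at the entrance and at the exit of glycolysis. Glucose transporters carry glucose across the plasma membrane, and hexokinases phosphorylate it, which keeps it in the cell. At the other end, pyruvate is either oxidised in mitochondria by pyruvate dehydrogenase, which the pyruvate dehydrogenase kinases switch off, or reduced to lactate by lactate dehydrogenase and exported with a proton by monocarboxylate transporters. Under low oxygen the hypoxia-inducible factors, HIF, bind the core letters ACGTG or GCGTG. They are known to raise Slc2a1, Hk2, Pdk1, Ldha and Slc16a3 in many cell types. The other genes serve the same steps, and their dependence on HIF is not weighed here.

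The arrays had median signals of 15.9 to 19.3 units and trimmed means of 100.1 units, since the authors had scaled them, and their small number limits the precision. The array of cyclic hypoxia plus reoxygenation stood apart: its mean correlation with the other arrays was 0.940, against 0.962 to 0.966 for the others, and its median log2 signal over the probe sets kept lay at -0.20 relative to normoxia, against shifts of -0.03 to 0 on the other arrays. Melanocyte markers fitted the label, with 7 of 8 on the array, all 7 over the filter and summed signals of 18938 to 24770 units. Summed markers stayed at 16.4 to 32.3 units for fibroblasts (0 of 6 passed the filter), 14.1 to 25.2 for immune cells (1 of 5), 25.6 to 44.1 for endothelium (1 of 6, with 2 under the floor on all arrays) and 17.7 to 24.7 for keratinocytes (1 of 5). Their part in the results was not tested. RNA came from whole cultures, so a change in the share of cells that express a gene and a change in RNA per cell cannot be told apart.

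Promoter sequence is printed for the genes named above as raised by HIF and for Pdk3, whose signal hardly differed between arrays. The HIF core letters can thus be seen in place. The windows are the 250 bases before the first RefSeq transcript start in build GRCm38.p6. They are Slc2a1 at chr4:119108495-119108744 (plus strand), Hk2 at chr6:82774455-82774704 (minus strand), Pdk1 at chr2:71872974-71873223 (plus strand), Pdk3 at chrX:93832151-93832400 (minus strand), Ldha at chr7:46845554-46845803 (plus strand) and Slc16a3 at chr11:120948817-120949066 (plus strand). Each is written 5′ to 3′ on the strand of its gene and ends just before the start. Capitals mark ACGTG or GCGTG on either strand (CACGT and CACGC when read on the opposite strand).
Slc2a1: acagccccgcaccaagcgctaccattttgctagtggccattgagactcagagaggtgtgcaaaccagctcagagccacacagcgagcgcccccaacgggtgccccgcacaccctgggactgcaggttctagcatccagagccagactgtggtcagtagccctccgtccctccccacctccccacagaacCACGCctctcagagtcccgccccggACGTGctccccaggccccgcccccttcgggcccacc
Hk2: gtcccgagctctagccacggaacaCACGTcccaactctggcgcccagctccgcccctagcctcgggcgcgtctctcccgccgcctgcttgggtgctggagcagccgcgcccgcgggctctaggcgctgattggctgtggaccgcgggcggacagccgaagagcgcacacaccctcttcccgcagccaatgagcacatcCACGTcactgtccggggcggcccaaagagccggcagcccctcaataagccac
Pdk1: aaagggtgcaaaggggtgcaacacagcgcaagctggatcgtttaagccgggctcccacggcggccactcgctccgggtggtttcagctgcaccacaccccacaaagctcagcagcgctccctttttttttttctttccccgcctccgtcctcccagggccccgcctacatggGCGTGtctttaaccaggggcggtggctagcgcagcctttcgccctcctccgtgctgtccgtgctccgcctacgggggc
Pdk3: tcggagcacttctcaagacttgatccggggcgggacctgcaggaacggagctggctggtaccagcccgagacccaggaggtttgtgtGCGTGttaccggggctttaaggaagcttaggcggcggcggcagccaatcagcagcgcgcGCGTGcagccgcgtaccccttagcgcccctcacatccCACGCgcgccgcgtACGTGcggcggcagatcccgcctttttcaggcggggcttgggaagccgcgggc
Ldha: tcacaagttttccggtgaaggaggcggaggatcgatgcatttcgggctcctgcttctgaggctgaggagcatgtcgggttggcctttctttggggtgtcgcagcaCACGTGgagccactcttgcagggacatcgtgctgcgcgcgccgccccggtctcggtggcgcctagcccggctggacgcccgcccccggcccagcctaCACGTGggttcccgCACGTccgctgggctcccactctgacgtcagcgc
Slc16a3: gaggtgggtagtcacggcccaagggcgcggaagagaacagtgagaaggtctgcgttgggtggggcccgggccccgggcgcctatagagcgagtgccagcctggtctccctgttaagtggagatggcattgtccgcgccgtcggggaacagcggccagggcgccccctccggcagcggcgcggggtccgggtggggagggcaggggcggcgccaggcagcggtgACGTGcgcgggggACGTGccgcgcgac

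The Hk2 window held ACGTG at 226 to 222 and at 52 to 48 bases before the start, both on the opposite strand. Slc2a1 had ACGTG at 36 to 32 bases and GCGTG on the opposite strand at 61 to 57 bases. Ldha had 5 matches of ACGTG, of which 4 came from the palindrome CACGTG read on both strands at its 2 places. Slc16a3 had ACGTG at 27 to 23 and at 14 to 10 bases, and Pdk1 had a single GCGTG at 78 to 74 bases. Pdk3 had 1 match of ACGTG and 3 of GCGTG. Of the other genes in the table, Slc16a1 had 4 matches, Ldhb had 1, and the windows of Hk1 had 3 and 0. Slc2a3 had no window among the promoter sequences, so it was not searched. Without Slc2a3 the set had 12 windows. Either motif was present in 10 of them, against 38.6% of all 32851 windows, ACGTG in 6 against 16.6% and GCGTG in 7 against 28.2%. The windows include a second start for Hk1, Pdk1 and Ldha. A match describes these letters only.

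Against normoxia, 4 of the 10 genes were at least 2-fold higher on 1 or more hypoxia arrays and the other 6 were on none. Genes were counted, by brightest probe set, if at least 2-fold higher on 1 array than on the normoxia array of the same collection. Hk2 alone passed in cyclic hypoxia plus reoxygenation (1 of 10, where 3.56% of all 7746 genes did). The second probe set of Pdk1 also passed there (2.93-fold), as did the least bright of Slc2a1 (2.23-fold) but not its second (1.82-fold). Slc2a1, Hk2 and Pdk1 passed in cyclic hypoxia (3 of 10, against 2.12%). Slc2a1, Hk2, Pdk1 and Slc16a3 passed in chronic hypoxia plus reoxygenation (4 of 10, against 2.98%), and the same 4 passed in chronic hypoxia (4 of 10, against 2.53%). None was 2-fold lower in any of the 4, where the shares of all genes were 10.6%, 5.44%, 1.12% and 2.36% in that order. The median log2 difference of the 10 genes was 0.36, 0.22, 0.30 and 0.50, while that of all genes lay between -0.03 and 0.00. The signal on all 4 hypoxia arrays exceeded that on both normoxia arrays for Slc2a1, Hk2, Pdk1, Pdk3, Ldha and Slc16a3 (6 of 10, against 9.11% of all genes). In no gene of the set did all 4 lie below both (9.72% of all genes). Hypoxia arrays share a normoxia array within each collection, so these counts are not independent, and a single pair of arrays gives no error for its difference. The genes were chosen with earlier results of these data known, so the shares of all genes describe the counts and do not test them.

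**Figure D1:**
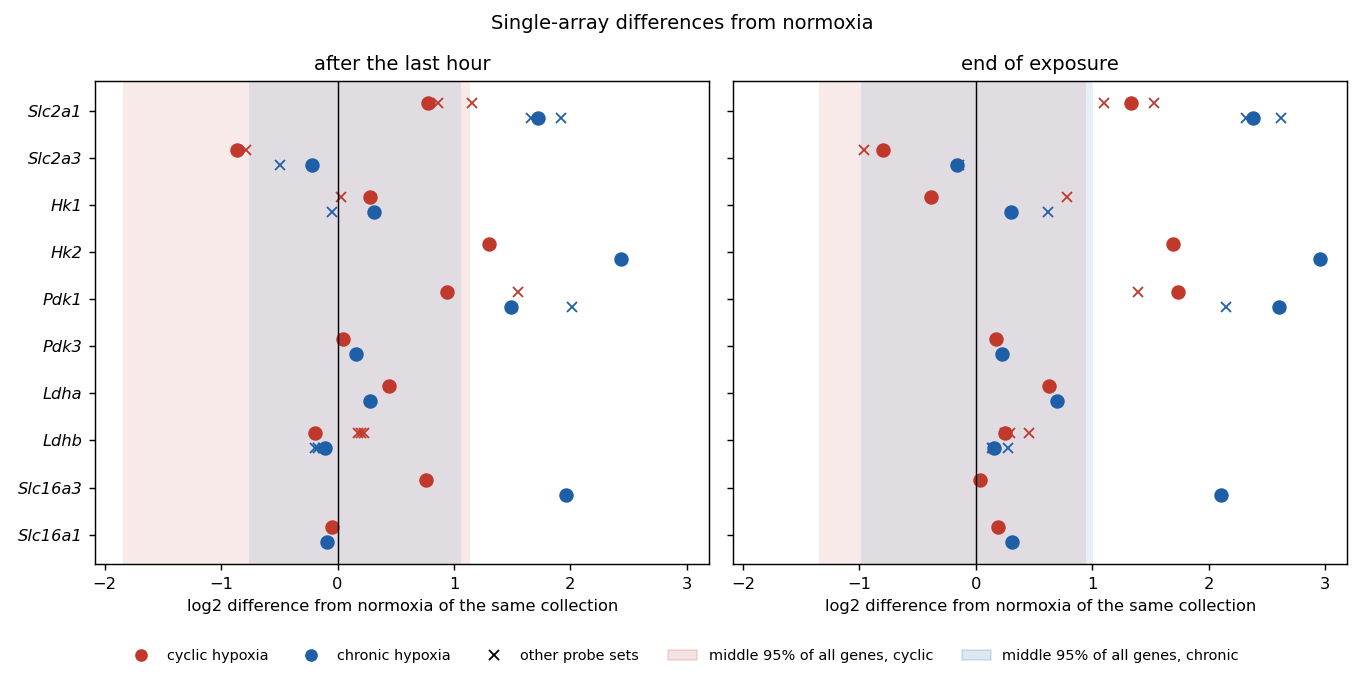
Log2 difference in signal between each hypoxia array and the normoxia array of the same collection (x axis) for the 10 genes (y axis), after the last hour at left and at the end of exposure at right. Red is cyclic and blue chronic hypoxia, circles are the brightest probe set of a gene, crosses its other probe sets, and shading spans the middle 95% of all 7746 genes. Hk2 reaches 2.95 and Slc16a3 2.11 in chronic hypoxia, while Slc16a3 in cyclic hypoxia lies at 0.03.

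A test needed a spread, which came from limma fits over all 6 arrays and 13556 probe sets on log2 signal. In the additive fit (regime plus collection) both collections of a regime act as replicates, so any change during the last hour that is not shared by the regimes adds to the noise. A probe set, and the gene it stands for, is called at a Benjamini-Hochberg adjusted p under 0.05 over all probe sets, and each interval is the 95% interval of the fit. The signal of each gene is given by its brightest probe set, and levels of different genes are not compared.

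Slc2a1, which encodes the basal glucose transporter GLUT1, rose in chronic hypoxia. Its brightest probe set had 301 units after cyclic hypoxia plus reoxygenation and 385 after cyclic hypoxia, 578 after chronic hypoxia plus reoxygenation and 793 after chronic hypoxia, against 175 in normoxia plus 1 h and 152 in normoxia. Every hypoxia array lay above both normoxia arrays, and both chronic arrays lay above both cyclic arrays. The folds over normoxia of the same collection were 1.72, 2.53, 3.30 and 5.21. The additive fit gave a log2 difference of 2.05 for chronic hypoxia (interval 1.55 to 2.55, adjusted p = 0.0287 in limma) and 1.06 for cyclic hypoxia (0.56 to 1.56, adjusted p = 0.126). All 3 probe sets of Slc2a1 passed for chronic hypoxia, the other 2 with 1.99 (adjusted p = 0.0308) and 2.27 (adjusted p = 0.0287). In this comparison 13 of 13556 probe sets (0.0959%) were called higher. Without the chronic hypoxia array the difference was 1.86 (adjusted p = 0.127), without chronic hypoxia plus reoxygenation 2.24 (adjusted p = 0.0517), and without cyclic hypoxia plus reoxygenation it stayed at 2.05 with an adjusted p of 0.000659. The call was also lost with no filter on low signal (adjusted p = 0.584) and with no intensity trend in the variance (adjusted p = 0.423). The cyclic difference without that last array was 1.17 (adjusted p = 0.133).

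Slc2a3, the gene of the high-affinity glucose transporter GLUT3, had its lowest signals in cyclic hypoxia. It had 41.0 units after cyclic hypoxia plus reoxygenation and 36.3 after cyclic hypoxia, 64.1 after chronic hypoxia plus reoxygenation and 56.4 after chronic hypoxia, against 74.6 in normoxia plus 1 h and 63.0 in normoxia. Both cyclic arrays lay below the other 4, and the chronic arrays overlapped with normoxia. A second probe set had the same order of regimes, with 19.0 and 15.1 units on the cyclic arrays, 23.3 and 26.5 on the chronic arrays and 32.8 and 29.4 in normoxia. The 2 probe sets left out lay under the floor on 4 and 6 of the 6 arrays. Whether the 2 probe sets used read Slc2a3 alone was not tested. The fit gave -0.83 for cyclic hypoxia (interval -1.37 to -0.29, adjusted p = 0.185) and -0.19 for chronic hypoxia (-0.73 to 0.35, adjusted p = 1.00), and neither was called. Over all 13 settings the cyclic difference stayed between -0.87 and -0.63, with -0.81 (adjusted p = 0.296) without cyclic hypoxia plus reoxygenation. It was no extreme among all genes, at rank 683 from the lowest of 7746 in cyclic hypoxia and 989 in cyclic hypoxia plus reoxygenation.

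**Figure D2:**
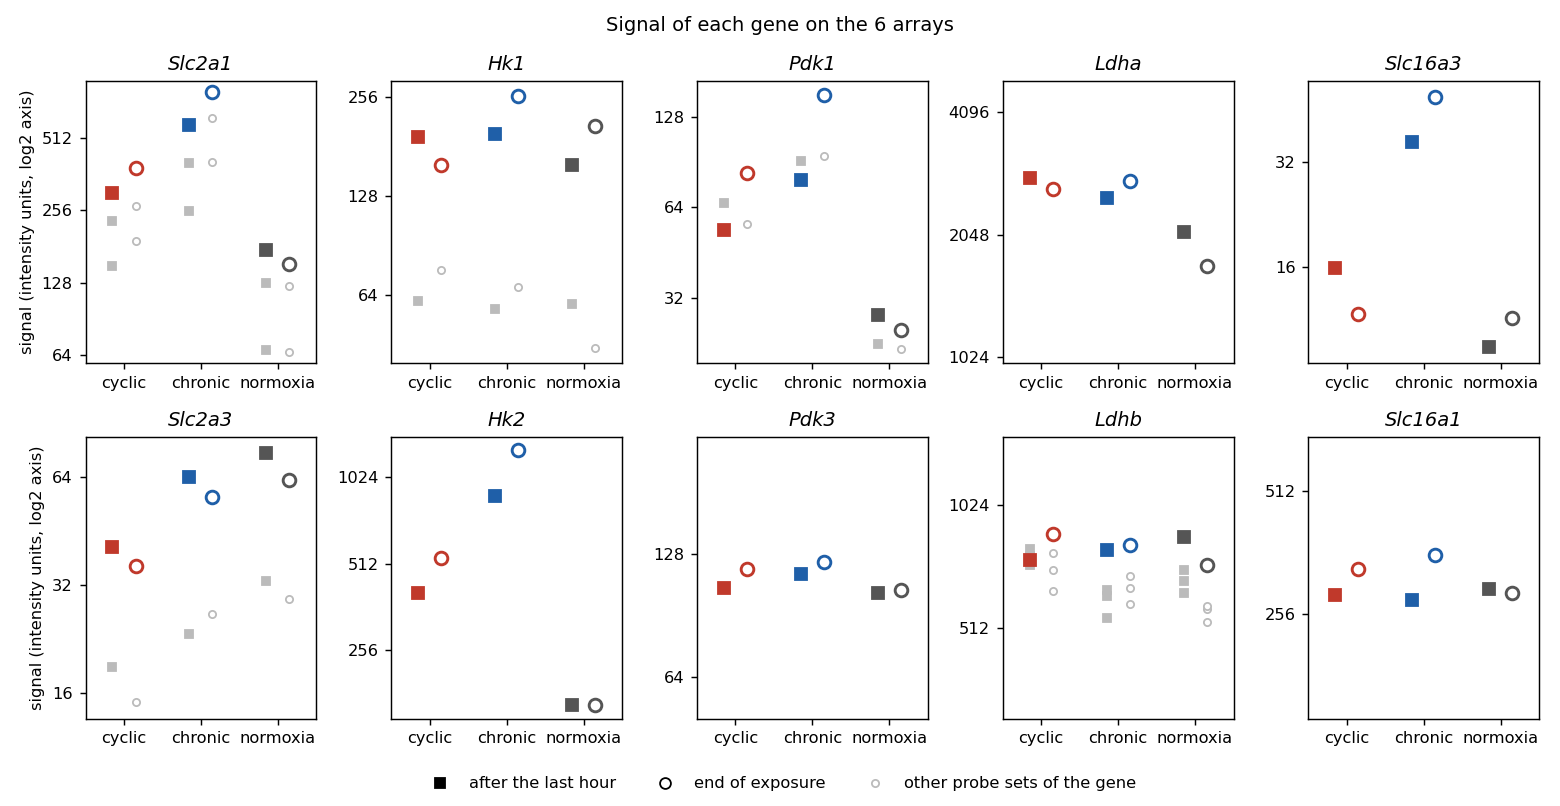
Signal in intensity units (log2 y axis, its range set per gene) on the 6 arrays for each of the 10 genes, with the regimes cyclic, chronic and normoxia along the x axis. Squares are arrays after the last hour, open circles arrays at the end of exposure, coloured for the brightest probe set, and small grey symbols are the other probe sets that passed the filter. Hk2 has 534 and 1279 units in cyclic and chronic hypoxia, against 165 in normoxia, and the brightest probe set of Ldhb stays between 732 and 872 units.

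Hk2 is a hexokinase that binds the mitochondrial surface and is induced in many tumours. By brightest probe sets, it stood furthest from normoxia of the 10 genes in all but 1 of the 4 comparisons. Its single probe set had 405 units after cyclic hypoxia plus reoxygenation and 534 after cyclic hypoxia, 885 after chronic hypoxia plus reoxygenation and 1279 after chronic hypoxia, against 164 in normoxia plus 1 h and 165 in normoxia. The normoxia arrays were within 2 units of each other, and no regimes overlapped. The folds over normoxia of the same collection were 2.47, 3.23, 5.40 and 7.74, ranks 136, 37, 16 and 7 from the highest of 7746 genes. The gene rose in chronic hypoxia by 2.69 on the log2 scale (SE 0.193, interval 2.25 to 3.14, adjusted p = 0.00911 in limma). The mean of both hypoxia regimes also rose, by 2.10 (1.71 to 2.48, adjusted p = 0.0207), where 2 of 13556 probe sets (0.0148%) were called.

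For cyclic hypoxia alone Hk2 gave 1.50 (interval 1.05 to 1.94, adjusted p = 0.0747), and no probe set of any gene was called in that comparison (0% of 13556), although limma gave 2024 an unadjusted p under 0.05. The cyclic difference of Hk2 passed when any 1 of the hypoxia arrays was left out, with 1.43 (adjusted p = 0.00487) without cyclic hypoxia, 1.56 (adjusted p = 0.0381) without cyclic hypoxia plus reoxygenation, and 1.50 without chronic hypoxia (adjusted p = 0.0465) or chronic hypoxia plus reoxygenation (adjusted p = 0.0423). In those settings 9.35%, 0.155%, 0.118% and 0.509% of all probe sets were called in that order, against 0% with all arrays. Without either cyclic array the regime rests on 1 array, which is assumed to vary like the others. The chronic call held without each array in turn. It was lost with no filter on low signal (adjusted p = 0.409) and with no intensity trend in the variance (adjusted p = 0.423).

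Hk1, the hexokinase of most resting tissues, gave no common direction. Its brightest probe set had 193 units after cyclic hypoxia plus reoxygenation and 159 after cyclic hypoxia, 198 after chronic hypoxia plus reoxygenation and 257 after chronic hypoxia, against 159 in normoxia plus 1 h and 208 in normoxia. The regimes overlapped. The fit gave -0.06 for cyclic hypoxia (interval -0.60 to 0.49, adjusted p = 0.934) and 0.31 for chronic hypoxia (-0.24 to 0.86, adjusted p = 1.00). A second probe set gave 0.41 for cyclic hypoxia, the opposite sign, with 61.2 and 75.9 units on the cyclic arrays against 59.9 and 44.0 in normoxia. One more probe set that names Hk1 together with other genes was not used.

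Pdk1, a kinase that phosphorylates and inactivates pyruvate dehydrogenase, had low signals in normoxia and higher ones on every hypoxia array. Its brightest probe set had 53.9 units after cyclic hypoxia plus reoxygenation and 83.5 after cyclic hypoxia, 78.8 after chronic hypoxia plus reoxygenation and 152 after chronic hypoxia, against 28.1 in normoxia plus 1 h and 25.0 in normoxia. Hypoxia and normoxia did not overlap, while cyclic and chronic hypoxia did. The folds were 1.92, 3.34, 2.80 and 6.09, and cyclic hypoxia, where Hk2 had 3.23, was the comparison in which Pdk1 came first. The fit gave 1.34 for cyclic hypoxia (interval 0.63 to 2.05, adjusted p = 0.144) and 2.05 for chronic hypoxia (1.34 to 2.76, adjusted p = 0.0962), neither called.

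The second probe set of Pdk1 was called for chronic hypoxia, at 2.08 (adjusted p = 0.0338), and gave 1.47 for cyclic hypoxia (adjusted p = 0.109). It had 66.0 units after cyclic hypoxia plus reoxygenation and 56.6 after cyclic hypoxia, 91.1 after chronic hypoxia plus reoxygenation and 95.3 after chronic hypoxia, against 22.5 in normoxia plus 1 h and 21.5 in normoxia. Both probe sets placed the hypoxia arrays above normoxia, but they differed on the last hour. The brightest passed for chronic hypoxia without normoxia plus 1 h (2.53, adjusted p = 0.0170), without cyclic hypoxia (2.05, adjusted p = 0.00921) and without cyclic hypoxia plus reoxygenation (2.05, adjusted p = 0.00621), where 0.111%, 0.479% and 0.516% of all probe sets were called.

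Pdk3, a second kinase of the same enzyme, had nearly equal signals throughout. It had 106 units after cyclic hypoxia plus reoxygenation and 118 after cyclic hypoxia, 115 after chronic hypoxia plus reoxygenation and 123 after chronic hypoxia, against 103 in normoxia plus 1 h and 105 in normoxia. The hypoxia arrays did lie above both normoxia arrays, but the lowest by under 2 units. The fit gave 0.11 for cyclic hypoxia (interval -0.38 to 0.60, adjusted p = 0.852) and 0.19 for chronic hypoxia (-0.30 to 0.68, adjusted p = 1.00). These intervals leave out a 2-fold change (log2 of 1) in either direction.

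Ldha encodes the lactate dehydrogenase subunit that favours the step to lactate. It had 2824 units after cyclic hypoxia plus reoxygenation and 2657 after cyclic hypoxia, 2519 after chronic hypoxia plus reoxygenation and 2783 after chronic hypoxia, against 2078 in normoxia plus 1 h and 1716 in normoxia. All hypoxia arrays were above both normoxia arrays, and the cyclic and chronic arrays overlapped. The folds were 1.36, 1.55, 1.21 and 1.62, none of them 2-fold. The fit gave 0.54 for cyclic hypoxia (interval 0.24 to 0.84, adjusted p = 0.155) and 0.49 for chronic hypoxia (0.19 to 0.79, adjusted p = 0.549), both uncalled, and 0.51 for their mean (adjusted p = 0.279). The mean passed in 1 of 12 settings, without cyclic hypoxia (0.52, adjusted p = 0.0412), where 3.82% of all probe sets passed, against 0.0148% with all arrays. The signal in normoxia plus 1 h was 0.28 above normoxia on the log2 scale, which is as large as the difference of 0.28 after chronic hypoxia plus reoxygenation.

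Ldhb, the subunit that favours the step back to pyruvate, had 752 units after cyclic hypoxia plus reoxygenation and 872 after cyclic hypoxia, 793 after chronic hypoxia plus reoxygenation and 817 after chronic hypoxia, against 857 in normoxia plus 1 h and 732 in normoxia. The regimes overlapped. The fit gave 0.03 for cyclic hypoxia (interval -0.35 to 0.41, adjusted p = 0.946) and 0.02 for chronic hypoxia (-0.36 to 0.40, adjusted p = 1.00), intervals without a 2-fold change. In single-array differences from normoxia its 4 probe sets agreed on sign except after cyclic hypoxia plus reoxygenation. There the brightest gave -0.19 and the other 3 gave 0.17 to 0.23. The fitted chronic difference was -0.03 at the least bright probe set and 0.01 to 0.05 at the others.

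Slc16a3 encodes MCT4, a lactate exporter of glycolytic cells, and was the gene in which the regimes differed most. It had 15.9 units after cyclic hypoxia plus reoxygenation and 11.7 after cyclic hypoxia, 36.7 after chronic hypoxia plus reoxygenation and 49.4 after chronic hypoxia, against 9.40 in normoxia plus 1 h and 11.4 in normoxia. The chronic arrays stood above all others, and the cyclic array at the end of exposure lay within 1 unit of its normoxia array. The folds were 1.69, 1.02, 3.90 and 4.32, ranks 493, 3421, 44 and 38 of 7746. The fit gave 0.40 for cyclic hypoxia (interval -0.51 to 1.30, adjusted p = 0.680) and 2.04 for chronic hypoxia (1.13 to 2.94, adjusted p = 0.220). The chronic difference passed without cyclic hypoxia (2.04, adjusted p = 0.0261) or without cyclic hypoxia plus reoxygenation (2.04, adjusted p = 0.0272), where 0.479% and 0.516% of all probe sets were called. The gene has 1 probe set, and its signals in normoxia and cyclic hypoxia lie close to the filter of 8.33 units.

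Slc16a1 encodes MCT1, which carries lactate and pyruvate in either direction. It had 284 units after cyclic hypoxia plus reoxygenation and 329 after cyclic hypoxia, 276 after chronic hypoxia plus reoxygenation and 357 after chronic hypoxia, against 294 in normoxia plus 1 h and 288 in normoxia. The arrays at the end of both exposures were the highest, and those after reoxygenation the lowest. The fit gave 0.07 for cyclic hypoxia (interval -0.38 to 0.52, adjusted p = 0.898) and 0.11 for chronic hypoxia (-0.34 to 0.56, adjusted p = 1.00), without a 2-fold change in either interval.

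Cyclic and chronic hypoxia were then compared directly, which asks whether interrupted hypoxia of the same total length left the genes at the same level. At the end of exposure Slc2a1, Hk2 and Slc16a3 were at least 2-fold lower in cyclic than in chronic hypoxia (3 of 10, against 3.76% of all genes), with log2 differences of -1.04, -1.26 and -2.08. After the last hour Hk2 and Slc16a3 were (2 of 10, against 12.6% of all genes), with -1.13 and -1.21, and Slc2a1 lay at -0.94. No gene of the set was 2-fold higher, against 1.23% and 2.5% of all genes. Pdk1 differed by -0.55 after the last hour and by -0.87 at the end.

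In the additive fit the cyclic minus chronic difference was -1.19 for Hk2 (interval -1.64 to -0.75, adjusted p = 0.132), -0.99 for Slc2a1 (-1.49 to -0.49, adjusted p = 0.204) and -1.64 for Slc16a3 (-2.54 to -0.74, adjusted p = 0.204). It was -0.64 for Slc2a3 (-1.18 to -0.10, adjusted p = 0.299) and -0.71 for Pdk1 (-1.42 to 0.01, adjusted p = 0.351). None was called, nor was any of the 13556 probe sets (0%), although limma gave 1960 an unadjusted p under 0.05. With the array of cyclic hypoxia left out, 2 of the 10 genes passed, but so did 9.83% of all probe sets, and the cyclic regime then rests on 1 array. With normoxia or normoxia plus 1 h left out, 1 gene passed, where 0.531% and 0.465% of all probe sets did. Ldha gave 0.05 (-0.25 to 0.35, adjusted p = 0.891), Ldhb 0.01 (-0.37 to 0.39), Slc16a1 -0.04 (-0.49 to 0.41) and Pdk3 -0.08 (-0.57 to 0.41). These 4 intervals leave out a 2-fold difference between the regimes. Hk1 gave -0.37 (-0.92 to 0.18).

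**Figure D3:**
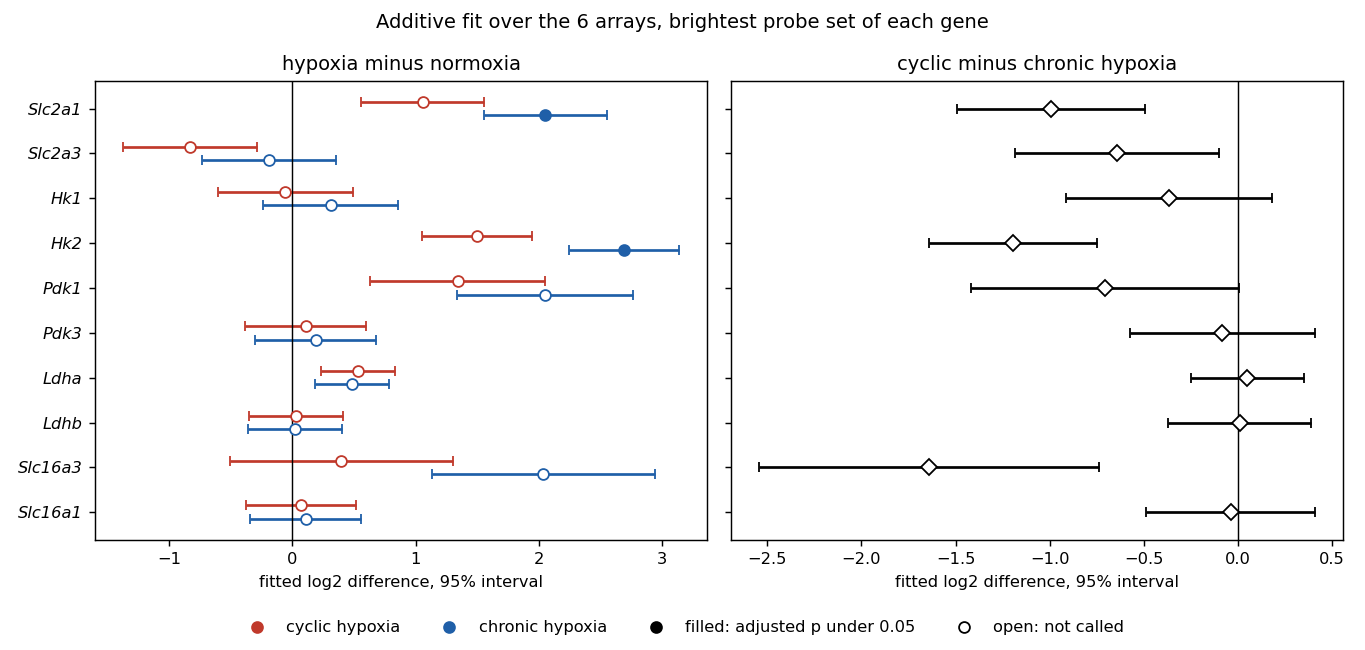
Fitted log2 differences (x axis) with 95% intervals for the 10 genes (y axis), brightest probe set, additive fit over 6 arrays. At left cyclic (red) and chronic (blue) hypoxia minus normoxia, with filled symbols for an adjusted p under 0.05, and at right cyclic minus chronic hypoxia. Hk2 (2.69) and Slc2a1 (2.05) are filled for chronic hypoxia, and at right the interval of Hk2 runs from -1.64 to -0.75 while that of Ldha runs from -0.25 to 0.35.

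The signal above normoxia gives the same comparison on the linear scale. For Hk2 the excess over the normoxia array of the same collection in cyclic hypoxia was 33.4% of that in chronic hypoxia after the last hour and 33.1% at the end. For Slc2a1 it was 31.1% and 36.3%, with 28.7% to 44.4% over its other probe sets. For Pdk1 it was 51.0% and 46.0%. Ldha had 169% after the last hour and 88.2% at the end, so its cyclic excess was the larger one in 1 collection and the smaller in the other.

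The last hour was compared with the end of exposure in each regime. No gene of the set was 2-fold higher or lower in that hour after cyclic hypoxia (2.9% and 7.47% of all genes were), after chronic hypoxia (2.22% and 1.45%) or in normoxia (0.865% and 1.87%). Hk2 differed by -0.40 after cyclic hypoxia and -0.53 after chronic hypoxia, against -0.01 in normoxia. Slc2a1 differed by -0.36 and -0.46, against 0.20 in normoxia. The brightest probe set of Pdk1 gave -0.63 and -0.95, against 0.17 in normoxia, and the second gave 0.22 and -0.06, against 0.06. Slc16a3 differed by 0.44 after cyclic and -0.43 after chronic hypoxia, against -0.28 in normoxia, and Ldha by 0.09 and -0.14, against 0.28.

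After 1 h of reoxygenation Hk2 kept 65.3% of its excess over normoxia in the cyclic regime and 64.7% in the chronic regime. Slc2a1 had 54.0% and 62.9%, and its other probe sets 55.1% to 73.1%. Pdk1 had 44.2% and 39.9% at its brightest probe set, but 124% and 93.0% at the second. Ldha had 79.2% and 41.3%, but its normoxia signal rose in that hour from 1716 to 2078 units. Its own signal rose from 2657 to 2824 units in the cyclic regime and fell from 2783 to 2519 in the chronic regime. All these shares come from single arrays and carry no error.

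**Figure D4:**
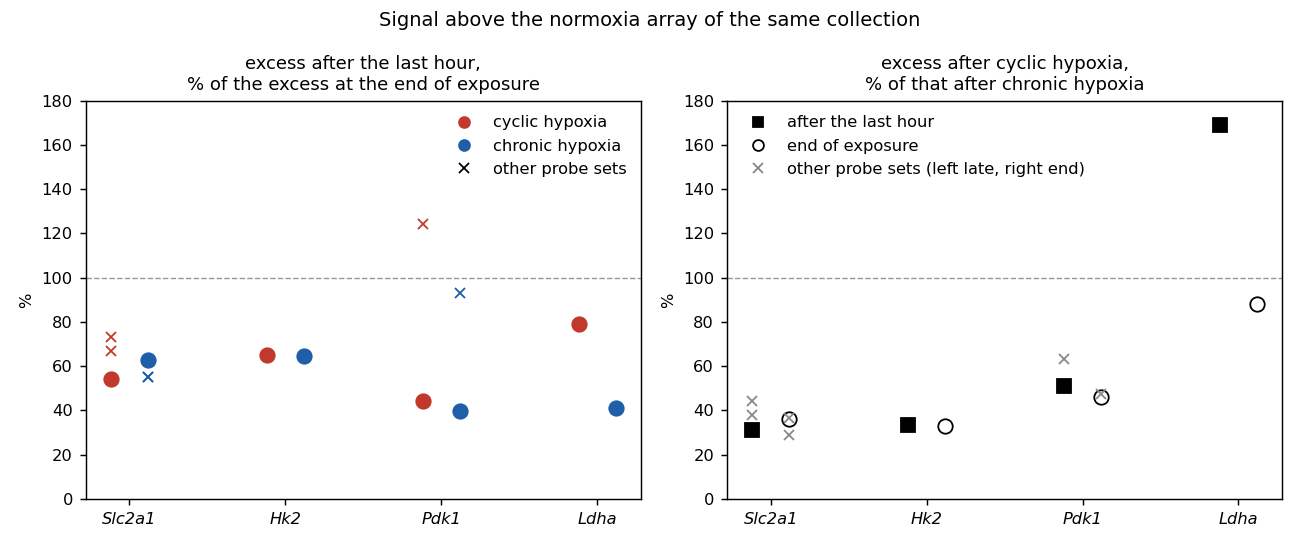
Signal above the normoxia array of the same collection, in percent (y axis), for the 4 genes at least 1.21-fold above normoxia on every hypoxia array (x axis). At left the excess after the last hour as a share of that at the end of exposure, in cyclic (red) and chronic (blue) hypoxia, and at right the cyclic excess as a share of the chronic one, after the last hour (squares) and at the end (open circles), with crosses for other probe sets. Hk2 lies at 65.3% and 64.7% at left and at 33.4% and 33.1% at right.

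A second fit let the hypoxia effect, averaged over both regimes, differ between collections, with 1 residual degree of freedom. After the last hour Hk2 gave 1.87 (adjusted p = 0.0512) and Slc2a1 1.25 (adjusted p = 0.292), with none of the set called, against 1 of 13556 probe sets (0.00738%). At the end of exposure Hk2 rose by 2.32 (adjusted p = 0.00532) and Slc2a1 by 1.86 (adjusted p = 0.0402), against 8 of 13556 probe sets called higher (0.059%) and 2 lower (0.0148%), and Pdk1 gave 2.17 (adjusted p = 0.0632). The later minus the earlier effect was -0.45 for Hk2 (interval -1.23 to 0.32), -0.61 for Slc2a1 (-1.43 to 0.21) and -0.96 for Pdk1 (-2.06 to 0.14), against 0.02 (-1.12 to 1.15) at its second probe set. Each had an adjusted p of 1.00, none of the set passed, 2 of 13556 probe sets did (0.0148%), and 545 had an unadjusted p under 0.05 in limma. The intervals for Hk2, Slc2a1 and Pdk1 include both no change and a 2-fold decline, so a loss in the last hour could not be told from none, and the array of cyclic hypoxia plus reoxygenation, which stood apart, enters each of them.

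The profiles of the genes over the 6 arrays were set side by side after centring each on its mean log2 signal, with the root mean square difference as the measure of likeness. Slc2a1 and Pdk1 differed by 0.21, Slc2a1 and Hk2 by 0.28, and Hk2 and Pdk1 by 0.31. Slc16a3 was 0.41 from Slc2a1 and 0.52 from Hk2, and the other genes of the set were 0.67 or more from Slc2a1. Outside the set, the genes nearest to Slc2a1 were Jmjd6 (a nuclear oxygenase, 0.15), Bnip3 (a mitophagy receptor, 0.25), Pvr (a nectin-like adhesion protein, 0.26), P4ha2 (a collagen prolyl hydroxylase, 0.32) and Pfkp (a phosphofructokinase, 0.34). Those nearest to Hk2 were Bnip3 (0.20), Jmjd6 (0.37), Rasd2 (0.38), Maff (0.42) and Gtpbp6 (0.45). In normoxia Rasd2 had 1.08 units and Gtpbp6 had 1.54, each under the signal floor and therefore set to it. On the later normoxia array they had 3.38 and 3.92 units. The likeness of Rasd2 and Gtpbp6 to Hk2 thus depends in part on the floor. These normoxia signals were also under the filter of 8.33 units, which was set on the mean over the arrays. Both genes passed it only through their hypoxia arrays, so their place among the nearest genes depends in part on the filter. Jmjd6 had 140 and 167 units on the cyclic arrays and 241 and 338 on the chronic arrays, against 76.6 and 85.5 in normoxia, the later collection first. Likeness over 6 arrays that share their processing is a description and was not tested.

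No other gene of these steps that passed the filter was called. In 4 further lists, chosen with earlier results known, none passed in the additive fit for cyclic, chronic or mean hypoxia, where 0%, 0.0959% and 0.0148% of all probe sets were called higher. Of 22 genes of glucose entry and storage, 15 were on the array and 9 passed the filter, with median fitted differences of 0.08 in cyclic and 0.35 in chronic hypoxia, against -0.03 and -0.00 for all genes. Gys1 (glycogen synthase) gave 0.67 and 1.04, and Pgm1 (phosphoglucomutase) 0.61 and 0.52, and G6pc3, a glucose 6-phosphatase, gave -0.15 and -0.05. Txnip, which promotes removal of glucose transporters from the membrane, gave -0.91 (adjusted p = 0.491) and -1.31 (adjusted p = 0.935). Its signals were 66.1 after cyclic hypoxia plus reoxygenation and 113 after cyclic hypoxia, 27.2 after chronic hypoxia plus reoxygenation and 158 after chronic hypoxia, against 186 in normoxia plus 1 h and 142 in normoxia, so it was low on both reoxygenated arrays.

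Of 10 genes of the pyruvate dehydrogenase complex and its regulators, 6 were on the array and 4 passed, with medians of -0.05 in cyclic and 0.04 in chronic hypoxia. The subunit genes Pdhb (0.11 and 0.21), Pdha1 (-0.05 and 0.09) and Dlat (-0.05 and -0.06) stayed close to normoxia. Dld, the dihydrolipoamide dehydrogenase subunit, gave -0.65 and -0.00, and its low value came from the array of cyclic hypoxia plus reoxygenation (-1.24, against -0.07 in cyclic hypoxia). Of 14 further genes of pyruvate and lactate fate, 12 were on the array and 9 passed, with medians of -0.10 and -0.07. Gpt2, a mitochondrial alanine aminotransferase, gave 0.70 and 0.68, Bsg, the chaperone of the monocarboxylate transporters, 0.26 and -0.00, Me2, a mitochondrial malic enzyme, -0.49 and -0.42, and Mpc1, a subunit of the mitochondrial pyruvate carrier, -0.23 and -0.33.

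The steps from phosphofructokinase to pyruvate kinase were mostly above normoxia without a call. Of 14 genes listed, 11 had a probe set that named them alone. All 11 passed the filter, with medians of 0.45 in cyclic and 0.33 in chronic hypoxia. Gapdh, Eno1 and Pfkfb4 had no such probe set and were not assessed. All 11 had fitted differences above 0 in both regimes, where the medians of all genes were -0.03 in cyclic and -0.00 in chronic hypoxia. Pfkp gave 0.72 (adjusted p = 0.245) and 1.24 (adjusted p = 0.260), and Pfkl, the liver-type phosphofructokinase, 0.75 and 1.20. The lowest were Pfkfb3, which makes the activator of phosphofructokinase, with 0.02 and 0.18, and Pfkm with 0.27 and 0.14. Single arrays placed Pfkfb3 below normoxia at the end of exposure, by -0.31 in cyclic and -0.58 in chronic hypoxia. After the last hour it lay above normoxia, by 0.35 and 0.93.

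**Figure D5:**
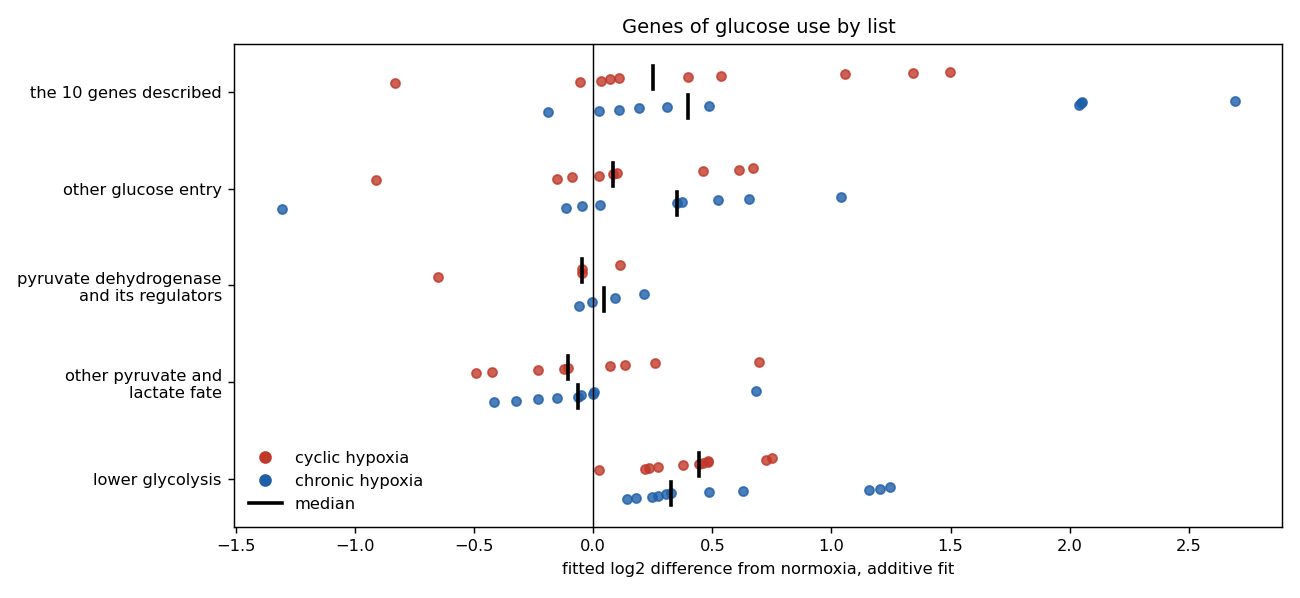
Fitted log2 difference from normoxia (x axis, additive fit) of each gene that passed the filter, by list (y axis), with cyclic hypoxia in red above chronic hypoxia in blue and a black bar at the median. The 10 genes described spread from -0.83 to 1.50 in cyclic and from -0.19 to 2.69 in chronic hypoxia, and no gene of the 4 other lists was called.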

How the data were processed

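Each of the 6 groups gave 1 Affymetrix array. Per the labels, 5 µg of total RNA was turned into biotinylated cRNA. The deposited values are signal intensities on a linear scale, scaled by the authors to a common trimmed mean, and the submitters' processing notes name GCOS, with no version or algorithm given. No further scaling and no detection calls were applied. Before log2, a floor was set at the 20th percentile over all arrays (2.10 units). The 64 control probe sets and those with a mean under the 40th percentile of means (8.33 units) were left out, which kept 13556 of 22690. Probe sets took genes from the platform annotation (20393 named 1 gene, 691 several and 1606 none, with current symbols for 20364). A gene was counted as on the array only if some probe set named it alone. The probe set with the highest mean signal stood for a gene.

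Fits used limma 3.58.1 in R 4.3.3 with an intensity trend and two-sided moderated tests. The additive fit left 2 residual degrees of freedom and the interaction fit 1. Its p-values, like those of the additive fit, measure departures of these arrays from the fitted pattern, with variances moderated over all probe sets. Such departures may be technical or may be changes in the last hour that differ between regimes. They are not a spread between replicates. Single arrays were compared at 2-fold, without a test. Windows before transcript starts came from RefSeq.

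The text names all 10 genes, the 2 highest and 2 lowest of each other list by mean difference (and any called), and the 5 genes most like Hk2 and Slc2a1. The genes and lists were chosen with earlier results of these data known. Alternatives were log2(signal + 16) without a floor, no filter, quantile normalization, median centring, the second brightest probe set, no trend, and leaving out each array.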

Additional observations from a re-analysis of the deposited data

Results flagged for a closer look

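Ldhb lay above normoxia on both hypoxia arrays at the end of exposure and below it on both after the last hour. The log2 differences after the last hour were -0.19 in cyclic and -0.11 in chronic hypoxia, and those at the end were 0.25 and 0.16. In that hour the normoxia signal itself changed by 0.23 on the log2 scale, against -0.22 after cyclic and -0.04 after chronic hypoxia. The later minus the earlier effect was -0.36 (SE 0.313, adjusted p = 1.00 in limma's interaction fit), so the difference did not pass the test. The other 3 probe sets gave positive values after cyclic hypoxia plus reoxygenation.

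Slc16a1 had the same order of signs. Its log2 differences after the last hour were -0.05 in cyclic and -0.09 in chronic hypoxia, and those at the end were 0.19 and 0.31. The later minus the earlier effect was -0.32 (SE 0.385, adjusted p = 1.00 in limma's interaction fit), which did not pass the test either.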

How the results depend on the processing

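Of the 10 genes, 2 were called in chronic hypoxia and 1 for mean hypoxia. With no filter on low signal or with no intensity trend, 0 were called in either, and 0 in the fit at the end of exposure, where 2 were called. Those settings left no probe set called in chronic hypoxia, against 13. Quantile normalization gave 1 for cyclic, 2 for mean, 4 for the end and 1 for the last hour, and median centring gave 3 for cyclic, 3 for mean and 2 for the last hour. With these scalings 20 and 158 probe sets were called in cyclic hypoxia (0 as reported), 24 and 35 for mean hypoxia (2 as reported), 39 and 74 in the fit for the end of exposure (10 as reported), and 14 and 71 in that for the last hour (1 as reported). The signal + 16 scale gave 2 for mean hypoxia and 1 for the last hour, with 12 and 3 probe sets called in all. Only 5 genes have a second probe set over the filter, and Hk2 and Slc16a3 are not among them. By their second probe sets 0 of the 5 were called for mean hypoxia and 0 at the end of exposure, against 0 and 1 by their brightest.

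Leaving out 1 array gave 1 to 4 calls in chronic hypoxia, 0 to 1 in cyclic hypoxia, 1 to 5 for mean hypoxia and 0 to 2 for cyclic against chronic hypoxia. The counts over all 13556 probe sets were 3 to 70, 4 to 1268, 4 to 518 and 0 to 1333 in that order. The highest for cyclic, mean and cyclic against chronic hypoxia came without the array of cyclic hypoxia, when that regime rests on 1 array. The interaction fit has no spread left without an array and was not run so. The count of genes 2-fold apart was 2 with quantile or median scaling in cyclic hypoxia plus reoxygenation (1 as reported), and 1 with signal + 16, quantile or median scaling between cyclic and chronic hypoxia after the last hour (2 as reported). Of the 5 genes, by their second probe sets, 2 were 2-fold apart in chronic hypoxia and 2 in chronic hypoxia plus reoxygenation. Between cyclic and chronic hypoxia 1 was 2-fold apart when exposure ended, and 0 between their reoxygenated arrays. These are the same counts as by their brightest. In cyclic hypoxia plus reoxygenation against normoxia plus 1 h the counts differed, with 1 by second probe sets and 0 by brightest.

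Differences near 0 changed sign. Hk1 in cyclic hypoxia was -0.06, against 0.053 with median centring, 0.41 at its second probe set and -0.39 to 0.28 with an array left out, and its mean was -0.041 to 0.30. With an array left out, Ldhb was -0.15 to 0.21 in cyclic, -0.16 to 0.20 in chronic and -0.15 to 0.21 for mean hypoxia, and -0.0018 in cyclic hypoxia with quantile normalization. Slc16a1 was -0.091 to 0.23 in cyclic, -0.053 to 0.27 in chronic and -0.072 to 0.25 for mean hypoxia, and Slc16a3 in cyclic hypoxia was -0.0027 to 0.80. The cause of these changes was not tested. Of the other values of single genes, 291 kept sign and side of the threshold, 28 passed it and 8 fell short of it. No paired analysis was possible because each group has 1 array and the labels give no replicate numbers.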
